A study of Mus musculus with 4 samples.

Results

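The genes of cholesterol and fatty acid synthesis were examined in activated mouse B cells. They comprised 34 genes: 18 enzymes of the route from acetyl-CoA to cholesterol, 8 genes of its SREBP regulators and of sterol transport, and 8 genes of fatty acid synthesis, elongation and desaturation. Members were taken by symbol from the array's gene names, current or older, which gave 50 of the 39429 probes on the array. All 34 genes had a probe above background on enough arrays to be tested, among 15961 tested genes, and 47 of the 50 probes passed that filter. Of the members, 32 were above background on all 4 arrays. Srebf1 and Fasn were above it on 1 of the 2 arrays labelled WT, of which replicate 2 had a higher background. The log2 signal of Fasn was 6.95 on that array and 6.82 on Ackr4ko replicate 2, where it counted as above background.

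The cells were spleen B cells purified by MACS (magnetic sorting). They were activated in culture over 3 days by antibodies to the B cell receptor (anti-IgM, 10 µg/mL) and to CD40, a receptor for T cell help (clone FGK4.5, 10 µg/mL). Donors were C57BL/6 males (WT) and males deficient in Ackr4 (Ackr4ko), an atypical chemokine receptor that scavenges chemokines. The Ackr4ko donor was 73 days old in experiment 1 and 71 days old in experiment 2, and the WT donors were 77 and 74 days old. How the Ackr4 allele was made is not given in the sources used here, and all cultures of both genotypes received the same antibodies. Each experiment used other donors and gave 1 array per genotype, so every comparison rests on 2 arrays against 2, and a permutation of single values could not go below an exact two-sided p of 0.333.

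The genotype labels of the 4 arrays carry a conflict that touches every direction given here. The authors also deposited a table of processed values, and within each experiment its Ackr4ko column matched the scanner array labelled WT best and its WT column the one labelled Ackr4ko (r of 0.999 to 0.9999 over 16207 probes) with lower values for the array of the same label (0.979 to 0.986). Values are therefore given for arrays labelled Ackr4ko and arrays labelled WT as in the scanner files. If the table's columns carry the right labels, every sign of a genotype difference turns. The array labelled WT replicate 2 stood apart technically, with 6.24% of its spots called outliers against at most 2.12% on the others. Its highest local background was 292 units against at most 76. The lowest signal called well above background was 114 units there and at most 37.7 on the others. The 75th percentile of the signal, which sets the scale, lay between 740 and 1277 units. From 42.2% (WT replicate 2) to 54.9% (Ackr4ko replicate 1) of probes were above background. B cell markers were above background on all arrays (10 of 10). Their log2 summed signal was 18.50 under the Ackr4ko label and 18.75 under the WT label in experiment 1, and 18.34 and 18.63 in experiment 2, with 6 and 2 of 10 higher under the Ackr4ko label. Of 9 dendritic cell markers, 5 were above background on each array labelled Ackr4ko and 3 on each labelled WT, with log2 summed signals of 15.94 and 16.20 against 15.98 and 15.94. Batf3 and Fscn1 were not above background on any WT-labelled array and were tested only because they were above it under the Ackr4ko label. Of the other 3 tested, Flt3 differed by 1.30 and 0.84 in experiments 1 and 2, Zbtb46 by 0.66 and 1.33, and Siglech by -0.21 and 0.20. Of 12 macrophage and monocyte markers 4 to 6 were above background, with log2 summed signals of 15.22 and 14.83 against 15.55 and 15.62. The part of these other cells in the differences below was not tested, and in a bulk culture fewer cells of a type and less RNA per cell cannot be told apart.

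Cholesterol is built from acetyl-CoA in a single long pathway. The mevalonate arm makes farnesyl pyrophosphate, which also feeds protein prenylation, and the squalene arm joins it into squalene, closes the ring to lanosterol and trims that to cholesterol. The transcription factor SREBP-2, encoded by Srebf2, raises most of these enzymes when membrane sterol is low. Its relative SREBP-1c acts more on fatty acid genes. SCAP escorts both to the Golgi for cleavage, and INSIG proteins hold the complex back when sterol is plentiful. B cells that enter division need new membrane, and engagement of the B cell receptor or CD40 is known to raise lipid synthesis.

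SREBP factors bind promoters together with NF-Y, which recognises CCAAT, and with Sp1. Promoter sequences from RefSeq (GRCm38.p6) were on hand for 26 of the 34 members, from 250 bases before to 50 bases after each start. The motif CCAAT, searched on both strands, lay in a promoter of 20 of these 26 members (76.92%) against 41.06% of 27025 genes. Those genes were taken whether or not they were tested here, and a gene can have several promoters. Counted by promoter, CCAAT lay in 61.76% of 34 against 37.41% of 32851. GGGCGG, the Sp1 core, lay in 84.62% of the members against 38.2%, and the E-box CACGTG in 23.08% against 8.093%. The sterol regulatory element TCACNCCAC was found without a mismatch in 1 member, Hmgcs1 (3.846% against 1.436%), and with 1 mismatch allowed in 42.31% against 26.7%. Of the 15 enzymes with a promoter, 14 held CCAAT, the exception being Acat2. Scap, Abca1, Acaca, Elovl6 and Fads2 held none in this window. The 250 bases upstream of the start are printed for 5 members. Hmgcs1 (GRCm38.p6 chr13:119690101-119690350, plus strand) is the member with the exact sterol element, TCACCCCAC, which begins 137 bases before the start. Mvd (chr8:122443423-122443672, minus strand), Msmo1 (chr8:64733579-64733828, minus strand) and Hsd17b7 (chr1:169969206-169969455, minus strand) are shown as examples of enzymes with both arrays labelled Ackr4ko above both labelled WT (Pmvk, with 2 starts in the table, is not shown). Fads2 (chr19:10101504-10101753, minus strand), the member with the largest difference, is shown as one without CCAAT. Each is written 5′ to 3′ on the gene's strand, and capitals mark CCAAT on either strand (ATTGG when on the other) and the sterol element.
Hmgcs1: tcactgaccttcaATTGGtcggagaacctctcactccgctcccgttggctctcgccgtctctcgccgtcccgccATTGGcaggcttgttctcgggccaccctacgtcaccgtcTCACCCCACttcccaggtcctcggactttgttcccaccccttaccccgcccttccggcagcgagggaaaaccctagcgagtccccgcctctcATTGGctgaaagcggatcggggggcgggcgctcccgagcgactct
Mvd: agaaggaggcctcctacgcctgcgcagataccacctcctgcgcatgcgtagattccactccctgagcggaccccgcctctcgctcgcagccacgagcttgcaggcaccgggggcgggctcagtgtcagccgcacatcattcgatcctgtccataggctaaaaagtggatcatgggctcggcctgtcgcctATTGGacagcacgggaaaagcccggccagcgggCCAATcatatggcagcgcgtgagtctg
Msmo1: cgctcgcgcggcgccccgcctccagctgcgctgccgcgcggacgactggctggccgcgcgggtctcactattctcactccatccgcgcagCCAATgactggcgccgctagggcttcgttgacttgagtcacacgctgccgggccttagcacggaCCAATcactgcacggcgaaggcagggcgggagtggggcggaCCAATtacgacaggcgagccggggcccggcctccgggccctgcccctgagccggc
Hsd17b7: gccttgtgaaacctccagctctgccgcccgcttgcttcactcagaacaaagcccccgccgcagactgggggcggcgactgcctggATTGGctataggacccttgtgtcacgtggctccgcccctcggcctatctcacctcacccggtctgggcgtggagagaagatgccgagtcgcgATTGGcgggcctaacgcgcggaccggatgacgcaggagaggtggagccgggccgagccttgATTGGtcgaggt
Fads2: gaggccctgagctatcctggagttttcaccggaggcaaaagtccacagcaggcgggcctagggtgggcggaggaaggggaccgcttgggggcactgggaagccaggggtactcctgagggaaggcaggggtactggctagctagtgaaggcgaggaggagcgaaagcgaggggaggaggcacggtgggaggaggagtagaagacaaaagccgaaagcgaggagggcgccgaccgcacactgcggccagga
These letters describe the windows shown, and the arrays did not measure binding of any factor there.

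The cholesterol enzymes as a group were higher on the array labelled Ackr4ko in experiment 1 and stood near the shift of all genes in experiment 2. Their median log2 difference (Ackr4ko minus WT, on the log2 signal scale) was 0.67 in experiment 1, with 16 of 18 enzymes higher, against 44.6% of all tested genes. In experiment 2 it was 0.34, with 12 of 18 higher against 67.5% of all genes. The median of all genes was itself -0.04 in experiment 1 and 0.23 in experiment 2, so that relative to it the enzymes stood at 0.71 and 0.10. Of the 18 enzymes, 12 were higher in both experiments, where 33% of all genes were, and 2 were lower in both, where 20.9% were. The remaining 4, Mvk, Sqle, Tm7sf2 and Nsdhl, had opposite signs in the 2 experiments, as did 10 of all 34 members, against 46.1% of all genes. On 12 enzymes both arrays labelled Ackr4ko lay above both labelled WT, which held for 19% of all genes. No single enzyme passed the test: limma without a block called 0 of the 34 members at an adjusted p under 0.05, against 0.0125% of all genes, and 3 members had an unadjusted p under 0.05, against 4.59%. The number of members that were higher in both experiments fell from 21 to 14 after quantile normalization, and that scaling moved the median of all genes in experiment 2 to 0.04.

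**Figure D1:**
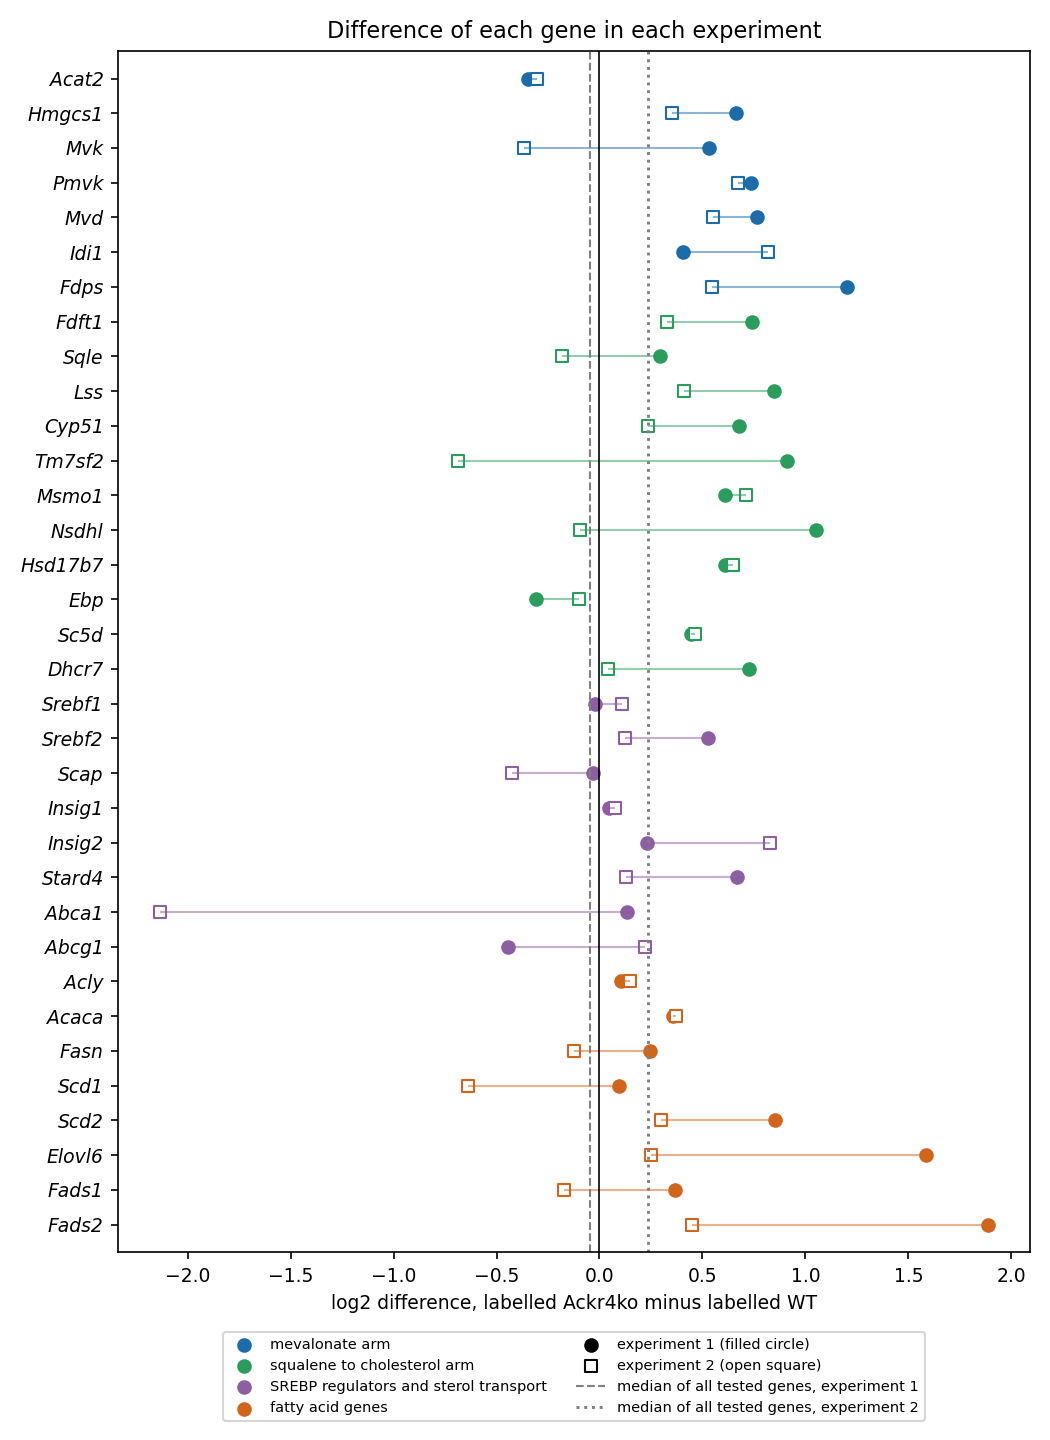
Difference of each of the 34 genes between the arrays labelled Ackr4ko and WT (x axis, log2 units), with experiment 1 as filled circles and experiment 2 as open squares; dashed and dotted vertical lines are the medians of all tested genes in each experiment. Of the 18 enzymes, 16 lie right of 0 in experiment 1 and 12 in experiment 2, and Abca1 in experiment 2 lies farthest left at -2.14.

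The mevalonate arm had a median difference of 0.61 over both experiments, with 0.66 in experiment 1 and 0.55 in experiment 2 and 5 of 7 genes higher in both. Relative to the median of all genes it stood at 0.71 and 0.31. The value in experiment 2 depended on the scaling. With quantile normalization, and with the authors' values by matched array, the arm had a median of 0.14 there, and 4 of its 7 genes were higher in both. Its last enzyme, Fdps (farnesyl pyrophosphate synthase), had a log2 signal of 14.72 and 14.68 in the Ackr4ko-labelled arrays and of 13.52 and 14.13 in the WT-labelled arrays, replicates 1 and 2 in that order here and for the genes that follow. Both arrays labelled Ackr4ko were thus above both labelled WT, and nearly all of the spread lay among the WT arrays. The difference was 1.20 in experiment 1 and 0.55 in experiment 2. Its mean was 0.87 ± 0.35 (moderated SE from limma, n = 2 arrays per genotype), or 1.83-fold. Such an SE draws on the variance of all genes as well as the gene's own. The limma adjusted p was 0.996 without a block and 0.210 with the experiment as a block (0.618 with the block after quantile normalization). Pmvk (phosphomevalonate kinase) measured 14.07 and 14.47 against 13.33 and 13.79, and differed by 0.74 and 0.67. Mvd, which decarboxylates mevalonate pyrophosphate, measured 11.95 and 11.78 against 11.18 and 11.23. Its difference was 0.77 in experiment 1 and 0.55 in experiment 2. In Pmvk and Mvd too the groups did not overlap, and neither passed the test (limma adjusted p of 1.00 in both).

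The other genes of this arm went separate ways. Hmgcs1, the synthase that makes HMG-CoA, differed by 0.66 and 0.35, and Idi1, which isomerises isopentenyl pyrophosphate, by 0.41 and 0.82. Mvk (mevalonate kinase), which acts just before Pmvk, was 0.53 higher in experiment 1 and differed by -0.37 in experiment 2. Acat2, the cytosolic thiolase at the start of the route, was lower on the arrays labelled Ackr4ko in both experiments, by -0.35 and -0.30.

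In the squalene arm 7 of 11 genes were higher in both experiments, with a median of 0.68 in experiment 1 and 0.24 in experiment 2, the second at the level of all genes. Msmo1, the sterol C4 methyl oxidase, measured 14.39 and 14.87 under the Ackr4ko label and 13.78 and 14.16 under the WT label, and differed by 0.61 and 0.71. Hsd17b7, which reduces the 3-keto group in the same demethylation, measured 10.02 and 10.16 against 9.41 and 9.51, and differed by 0.61 and 0.65. Its other 2 tested probes gave 0.51 and 0.44, and 0.14 and 0.51. These enzymes act together on the C4 methyl groups. Lss (lanosterol synthase), which closes the ring, measured 10.81 and 10.34 against 9.96 and 9.93. Its difference was 0.85 in experiment 1 and 0.41 in experiment 2. In these 3 genes the groups did not overlap, and the limma adjusted p was 1.00 without a block and 0.502 to 0.560 with it.

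Tm7sf2, a sterol C14 reductase, went opposite ways in the experiments. Its log2 signal was 12.06 and 11.33 under the Ackr4ko label and 11.14 and 12.02 under the WT label. It was 0.91 higher in experiment 1 and differed by -0.69 in experiment 2, and a further probe gave 0.87 and -0.60. Nsdhl, the dehydrogenase that works with Msmo1 and Hsd17b7, was 1.05 higher in experiment 1 and near equal in experiment 2 (-0.09). Dhcr7, the reductase of the last step, showed the same form at 0.73 and 0.04. Cyp51, the C14 demethylase, differed by 0.68 and 0.24. Fdft1 (squalene synthase) differed by 0.74 and 0.33 and Sc5d, a desaturase, by 0.44 and 0.46. Sqle, the squalene epoxidase, differed by 0.29 and -0.18. Ebp, the sterol isomerase, was lower in both experiments, by -0.31 and -0.10. Across the pathway 12 of 18 enzymes had the higher difference in experiment 1.

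**Figure D2:**
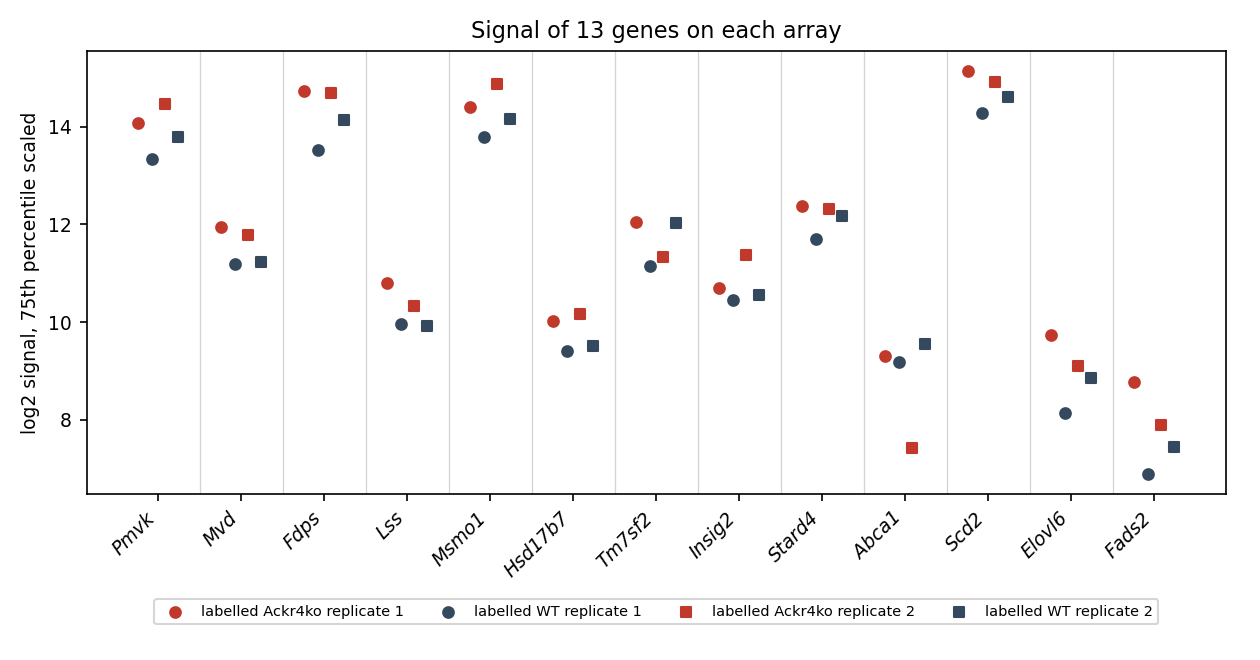
Log2 signal, scaled to the 75th percentile (y axis), of 13 genes on each array; colour gives the labelled genotype and shape the experiment. Pmvk, Mvd, Fdps, Lss, Msmo1, Hsd17b7, Insig2, Stard4, Scd2, Elovl6 and Fads2 have both red points above both dark points, while Tm7sf2 and Abca1 overlap. Apart from Tm7sf2, the genes shown are the 3 of each group with the smallest p (limma without a block), a choice that favours groups without overlap. Both arrays labelled Ackr4ko lay above both labelled WT in 18 of all 34 members and in 19% of all genes. Levels of different genes come from different probes and are not comparable.

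The regulators and transport genes as a group stood close to 0. Their median difference was 0.09 in experiment 1 and 0.12 in experiment 2. Of the 8, 4 were higher in both, where 33% of all genes were, and 1 was lower in both, where 20.9% were. Relative to the median of all genes the group stood at 0.13 and -0.12, and 1 of 8 lay above that median in experiment 2. Srebf2 differed by 0.53 and 0.12, while a further probe of the gene gave 0.61 and 0.88. Srebf1 was dim and differed by -0.02 and 0.11. Scap, the escort, differed by -0.03 and -0.43, and Insig1, a retention factor that SREBP itself induces, by 0.05 and 0.08. Its relative Insig2 measured 10.69 and 11.38 under the Ackr4ko label against 10.46 and 10.55 under the WT label, a difference of 0.23 and 0.83. Stard4, a carrier of cholesterol in the cytosol, measured 12.37 and 12.31 against 11.70 and 12.18. It differed by 0.67 and 0.13, and by 0.55 and 0.88 on a further probe, so that the experiment with the larger difference depended on the probe.

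Abca1, which exports cholesterol to apolipoproteins and is induced by LXR when sterol is plentiful, had the lowest difference of all members in experiment 2. It measured 9.31 and 7.42 under the Ackr4ko label and 9.18 and 9.55 under the WT label. A single array, Ackr4ko replicate 2, was thus low, and the other 3 lay close together. The difference was 0.13 in experiment 1 and -2.14 in experiment 2, with a mean of -1.0 ± 0.56 (moderated SE from limma, n = 2 arrays per genotype). The SD between arrays was 1.34 under the Ackr4ko label and 0.26 under the WT label. The limma adjusted p was 1.00 without a block and 0.095 with it. The blocked fit uses 1 variance for all genes, and after quantile normalization with the block the limma adjusted p was 0.656. Macrophages also express Abca1, and the 5 tested macrophage and monocyte markers went both ways in experiment 2: Mpeg1 differed by -1.09 and Adgre1 by -0.40, while Cd68 differed by 0.18, Csf1r by 0.24 and C1qb by 0.40. The part of such cells in the value was not tested. Abcg1, a further LXR target and sterol exporter, differed by -0.45 and 0.22.

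Among the fatty acid genes the largest differences were those of Fads2 and Elovl6, which act at desaturation and elongation. The group's median was 0.36 in experiment 1, with 8 of 8 genes higher, and 0.20 in experiment 2, with 5 of 8 higher. Fads2, the delta-6 desaturase that starts polyunsaturated fatty acid synthesis, measured 8.78 and 7.90 under the Ackr4ko label and 6.90 and 7.45 under the WT label. The groups did not overlap, but the gap in experiment 1 was far wider than that in experiment 2, at 1.89 against 0.45. The mean difference was 1.17 ± 0.41 (moderated SE from limma, n = 2 arrays per genotype), or 2.25-fold. A second probe gave 1.68 and 0.51 but was dim. That probe was above background on only 2 arrays, with 6.30 and 5.54 against 4.62 and 5.02, so its difference is limited by background. Fads2 was the only member called with the experiment as a block (limma adjusted p of 0.841 without it and 0.027 with it), where 2.04% of all genes were called higher and 1.3% lower. The block leaves 1 residual degree of freedom and uses 1 variance for all genes, and after quantile normalization with the block the adjusted p was 0.569.

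Elovl6, which elongates palmitate to stearate, measured 9.73 and 9.10 against 8.15 and 8.85. It differed by 1.58 and 0.25, with a limma adjusted p of 1.00 without a block and 0.162 with it (0.611 with the block after quantile normalization). Scd2, a stearoyl-CoA desaturase, measured 15.14 and 14.92 against 14.29 and 14.62 and differed by 0.85 and 0.30. Both genes had their larger gap in experiment 1, as Fads2 did. Scd2 and Fads2 each have a relative nearby on chromosome 19 with other values: Scd1 differed by 0.10 and -0.64, and Fads1 (delta-5 desaturase) by 0.37 and -0.17. The probes lay at mm9 chr19:10137760-10137819 for Fads2 and chr19:10270530-10270589 for Fads1, and at chr19:44381024-44381083 for Scd2 and chr19:44469387-44469446 for Scd1. An mm9 annotation was not used here, so their place within the genes is not given, and the difference between neighbours was not tested. At the start of the route Acly, which makes cytosolic acetyl-CoA, differed by 0.10 and 0.15, Acaca (acetyl-CoA carboxylase) by 0.36 and 0.37, and Fasn (fatty acid synthase), which was dim, by 0.25 and -0.12.

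**Figure D3:**
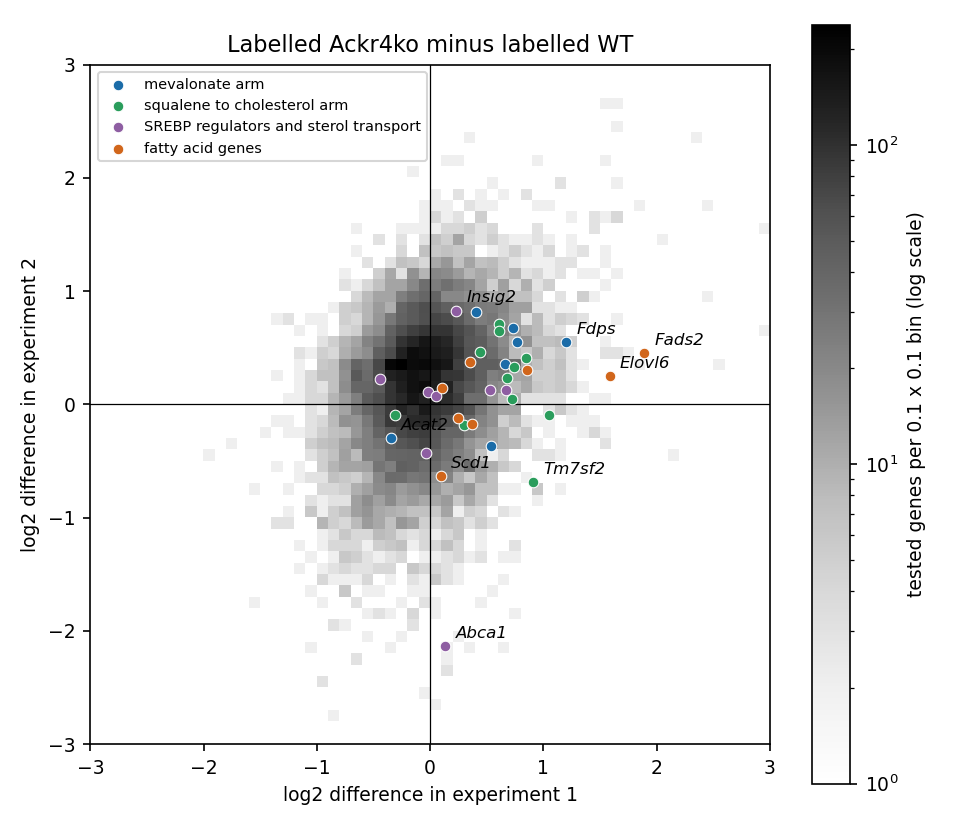
Difference between the arrays labelled Ackr4ko and WT in experiment 1 (x axis) and experiment 2 (y axis), both in log2 units, for the 34 genes (coloured by group) over all tested genes (grey, log colour scale of gene counts). The grey field leaves out 71 tested genes that lie beyond 3 log2 units on either axis. In experiment 1, 31 of the 34 genes lie above the median of all genes, and in experiment 2, 16 do.

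Set against the median of all genes, the members stood higher in experiment 1 than in experiment 2. Of the 34, 31 were above that median in experiment 1, 16 in experiment 2 and 16 in both, where 28.5% of all genes were above both. The enzymes stood 0.71 above it in experiment 1 and 0.10 in experiment 2, and under quantile normalization 0.74 and 0.08. The fatty acid genes stood 0.40 above it in experiment 1 and -0.04 in experiment 2 (0.40 and -0.18 under quantile normalization). Members at least 1.5-fold higher in both experiments were 3 of 34, all enzymes (Pmvk, Msmo1 and Hsd17b7), against 3.72% of all genes. Hsd17b7 reached this on its brightest probe but not on its other 2 tested probes. No test of the difference between the experiments was possible with 1 array per genotype in each.

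**Figure D4:**
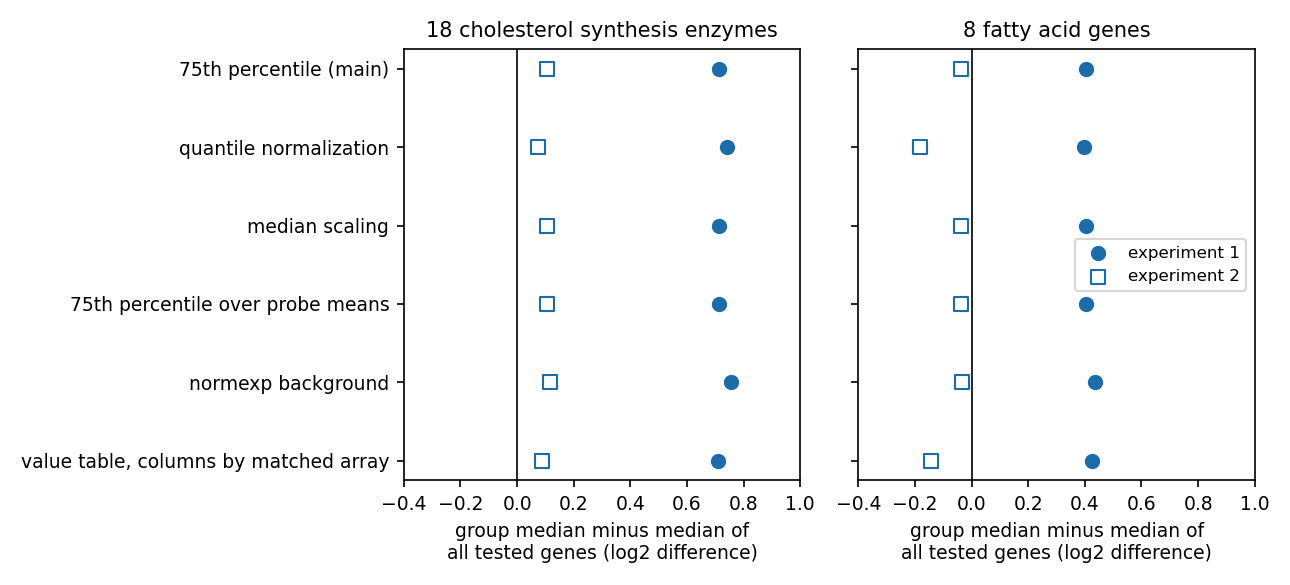
Median difference of the 18 cholesterol enzymes (left) and the 8 fatty acid genes (right), minus the median of all tested genes (x axis, log2 units), under 6 ways of scaling, of which the 3 that move all genes alike (both 75th percentile settings and median scaling) give equal values by construction; filled circles are experiment 1 and open squares experiment 2. The enzymes lie at 0.71 to 0.75 in experiment 1 and at 0.08 to 0.12 in experiment 2.

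From experiment 1 to experiment 2 more members were lower on the arrays labelled Ackr4ko than on those labelled WT. Under the Ackr4ko label 25 of the 34 were lower in experiment 2, against 41.4% of all genes, and under the WT label 9 were, against 57.5%. The 8 fatty acid genes were all lower in experiment 2 on the arrays labelled Ackr4ko and 4 were on those labelled WT. These 2 counts and the genotype differences are made from the same 4 arrays. In the limma test of experiment 2 against 1, 0 members and 0 of all genes (0%) were called, with 9.81% of all genes at an unadjusted p under 0.05. With genotype as a covariate 0 members were called, against 2.06% of all genes higher and 2.01% lower in experiment 2. The smallest adjusted p among members belonged to Fasn (-0.82, adjusted p 0.504), Srebf1 (-0.79, 0.504) and Scap (-0.60, 0.512). Abca1 moved by -1.90 on the arrays labelled Ackr4ko and by 0.37 on those labelled WT.

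The other genes of these pathways had medians nearer to that of all genes (0.08 over both experiments) than the enzymes (0.49) and the fatty acid genes (0.24). The regulators and transport genes, at 0.05, were also near it. Of 19 further sterol genes 17 were tested, with a median difference of 0.13 and 7 higher and 3 lower in both experiments. Vldlr, a lipoprotein receptor, measured 8.39 and 7.61 against 2.85 and 7.19, so that 1 array labelled WT, on which it was not above background, set the difference of 5.55 in experiment 1 against 0.43 in experiment 2 (limma adjusted p of 0.914 without a block, 7.7e-15 with it and 0.599 with the block after quantile normalization). Nfyc, a subunit of NF-Y, was lower in both experiments, by -0.48 and -0.55, and Tmem97, which binds sterols, was higher by 0.21 and 0.56. Of 19 further fatty acid genes 16 were tested, with a median of 0.11 and 8 higher and 2 lower in both. Slc25a1, the carrier that exports citrate from mitochondria for lipid synthesis, measured 12.27 and 13.04 on the arrays labelled Ackr4ko against 11.36 and 11.55. Its groups did not overlap, and it differed by 0.91 and 1.5, with a mean of 1.20 ± 0.37 (moderated SE from limma, n = 2 arrays per genotype). The limma adjusted p was 0.692 without a block and 0.0203 with it (0.459 with the block after quantile normalization). Lpin1, a phosphatidate phosphatase, differed by 0.82 and 0.92, and Elovl5, an elongase of polyunsaturated fatty acids, by 0.68 and 0.30.

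Further probes of a gene showed how far its difference depended on the probe. Of the members, 21 had 1 probe and 13 several, 11 of them with more than 1 tested probe. The mean difference varied between probes of a gene by at most 0.42 (Srebf2), but single experiments varied more. Of the 3 tested probes of Acaca, 2 that overlap in all but 1 base gave 0.36 and 0.37, and 0.38 and 0.34, while the remaining, dimmer probe gave -0.50 and 1.24. Only Acly had probes of opposite sign in the mean, at 0.13 and -0.04.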

How the data were processed

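Total RNA (50 ng per sample) of 4 cultures was hybridised to 1-colour Agilent arrays. The deposited scanner files give spot intensity as Agilent Feature Extraction wrote it (10.7.3.1, per the submitters' processing notes), with background-corrected processed signals and flags. The authors' deposited value table holds a normalized score per probe in whole numbers, and how it was made is not given in the sources used here.

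Here processed signals were put on a log2 scale and each array was centred on its 75th percentile (the mean percentile was added back). That percentile was taken over all spots but controls, outlier spots included. For the probe values control and outlier spots were left out, and the remaining spots of the 4 per probe were averaged. With the percentile taken over probe means, without outlier spots, the median of all genes in experiment 2 was 0.12 instead of 0.23. On that scale 11 enzymes were higher in both experiments. Probes were tested if 2 or more arrays showed 50% or more of the spots well above background, and the brightest tested probe stood for a gene. The number of arrays limits the precision. Genotypes, and experiment 2 against 1, were compared by two-sided moderated tests in limma 3.58.1 (R 4.3.3), without a block. Benjamini-Hochberg adjustment was made over 15961 genes, with a threshold of 0.05. Each SE given with a mean difference is the moderated SE of that fit, which draws a gene's variance toward that of all genes. A run of the fit on simulated data checked only the median size of known changes, and set no check on false calls. Replicate numbers mark the experiments, which the series description states, so they pair the arrays, and the arrays of an experiment deviated together from their group means (r = 0.421 over genes). Values from the blocked fit are given beside calls it changed and for some other genes.

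Members and lists were chosen with earlier results of these data known. Values on every array were given for members called in either fit, the 3 members of each group (mevalonate, squalene, regulators and transport, fatty acid) with the smallest p, and members that differed at least 1.5-fold in opposite directions. From each further list the called genes and the 3 with the smallest p were named. Abca1 in experiment 2 against 1 and the further probes were described besides. Alternatives covered normalization, background correction, filters, probe choice, the value table, the block and leaving out each array.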

Additional observations from a re-analysis of the deposited data

Results flagged for a closer look

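Tm7sf2, the sterol C14 reductase, moved in opposite directions in the 2 experiments: its log2 difference between the arrays labelled Ackr4ko and WT was 0.91 in experiment 1 and -0.69 in experiment 2, each from 1 pair of arrays. The difference between the experiments was not tested.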

How the results depend on the processing

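The count of genes called for genotype was 2 in the reported fit and 532 with the replicate block (higher 325, lower 207), 0 with the replicate block after quantile normalization (added after the data were seen; 1446 at an unadjusted p under 0.05), 1 with quantile normalization, 19 with normexp background, 1 with the value table by matched array, 0 in limma without a filter (296 at an unadjusted p under 0.05), 0 for probes above background on all arrays (524) and 5 with every probe as a feature. Leaving out an array gave 1 to 122 calls, 122 without WT replicate 2 and 24 without WT replicate 1. The block called 1 member, and no other setting called any. With the value table by its own labels the medians turned: -0.31 for all members, -0.40 for the enzymes, -0.44 for the mevalonate arm, -0.39 for the squalene arm, -0.023 for regulators and -0.18 for fatty acid genes. The mevalonate median was 0.44 with quantile normalization, with or without the replicate block, and 0.44 with the matched value table. The median of regulators and transport was 0.0077 with quantile normalization (with or without the replicate block), 0.0102 with normexp, -0.0065 with the percentile over probe means, chosen after seeing the data, and 0.023 with the matched value table. The fatty acid median was 0.36 for probes above background on all arrays, and the median of all genes was -0.26 without a filter. Leaving out 1 array gave medians of 0.19 to 0.50 for all members, 0.38 to 0.63 for the enzymes, 0.47 to 0.68 for the mevalonate arm, 0.25 to 0.55 for the squalene arm, -0.081 to 0.18 for regulators and 0.064 to 0.56 for fatty acid genes. Leaving out 1 array moved Tm7sf2 from -0.33 (without WT replicate 1) to 0.55, Srebf1 from -0.39 (without WT replicate 2) to 0.47, Fasn from -0.44 (without Ackr4ko replicate 1) to 0.56, and Scap from -0.63 to 0.17 and Scd1 from -0.71 to 0.17, both highest without Ackr4ko replicate 2. Over 14 alternatives, leaving aside the value table by its own labels, 23 of 34 members kept their sign. Not all of these could turn a sign. The block leaves a member's difference as it was, with or without quantile normalization, and averaging probes does so for members with 1 tested probe. For experiment 2 against 1, 650 genes were called with genotype as a covariate, and 0 to 200 when an array was left out (200 without Ackr4ko replicate 1 and 35 without WT replicate 1). The experiment medians then ranged from -0.38 to 0.21 for all members, -0.28 to 0.36 for the enzymes, -0.24 to 0.45 for the mevalonate arm (-0.081 with quantile normalization), -0.37 to 0.34 for the squalene arm, -0.20 to 0.091 for regulators and -0.57 to -0.14 for fatty acid genes, while Abca1 ranged from -1.83 without WT replicate 2 to 0.31 without Ackr4ko replicate 2. The causes were not tested. A lone array left in a group is assumed to vary like the other group. Where signal was near background, as in Srebf1 and Fasn, differences are limited by it.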
